A study of Homo sapiens with 8 samples.

Results

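Keratins are the intermediate filament proteins of epithelial cells. The 6 keratin genes described are KRT7, KRT8, KRT18, KRT19, KRT80 and KRT81. They were chosen by name, with earlier results of these data known. Every array probe whose platform annotation carries 1 of these symbols was taken. This gave 6 probes among the 22011 probes of the authors' table, for 5 of the 6 genes, since KRT18 had 2 probes and KRT81, a hair keratin, had none in the annotation used and was not analysed here. The arrays held probes for 45 keratin genes in all, so the 5 measured members stand beside 40 others.

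All 8 arrays, Illumina bead arrays that read each probe as a fluorescence intensity, were of A549, an established human lung adenocarcinoma line, carrying the hairpin shGLP against GLP, the histone methyltransferase encoded by EHMT1. Of these, 4 arrays were of cells at 24 h of 100 nM dexamethasone, a synthetic glucocorticoid, and 4 of cells at 0 h. Before hormone the cells grew for 3 days in phenol red-free medium with 5% charcoal-stripped serum. Every array carries the same hairpin, so no effect of GLP can be read from the comparison, and no 24 h array without hormone was analysed, so time in culture and dexamethasone cannot be told apart. The labels do not say whether the numbered replicates were separate cultures or whether the hairpin line was 1 clone, so the p-values measure the spread between these samples, which may be technical.

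Keratin filaments form from pairs of a type I and a type II protein. Among the genes measured here KRT18 and KRT19 encode type I keratins, and KRT7, KRT8 and KRT80 type II. KRT8 and KRT18 are the primary pair of simple, 1-layered epithelia. KRT7 and KRT19 are added in glandular and ductal epithelia and are used in pathology as markers of lung adenocarcinoma. KRT80 is known from differentiating epithelia, where its protein has been placed near desmosomes. Desmosomes and hemidesmosomes anchor the filaments to neighbouring cells and to the basement membrane.

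Between 13897 and 14797 probes were detected per array (detection p under 0.05), and median intensity ran from 137.5 to 272.7. TSC22D3, a gene known to be induced by glucocorticoids, read log2 13.95 ± 0.18 at 24 h and 10.77 ± 0.56 at 0 h (SD, n = 4 arrays each). EHMT1 lay near background, at log2 5.68 to 5.81 on the 24 h arrays and 5.13 to 5.57 on the 0 h arrays, and was detected on 4 of 4 and 1 of 4 arrays. NR3C1, the glucocorticoid receptor, read 9.32 ± 0.22 at 24 h and 9.38 ± 0.25 at 0 h. As a check of the line, KRT7, KRT8, KRT18 and KRT19 were detected on all 8 arrays, while KRT5 and KRT14, the keratin pair of basal layers, were detected on none. KRT15, also a keratin of basal cells, was detected on 0 of 4 arrays (24 h) and 4 of 4 (0 h). Of the 40 other keratin probes, 12 were detected on all arrays, among them KRT10 of upper epidermal layers. The epithelial marker EPCAM was near background, with detection on 4 of 4 arrays (24 h) and 3 of 4 (0 h).

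Dexamethasone for 24 h went with higher KRT8, KRT7 and KRT18 and with lower KRT80. On the scale of normalized log2 intensity KRT8 was higher by 0.92 ± 0.19 (SE), KRT18 by 0.69 ± 0.18 and KRT7 by 0.54 ± 0.12, which are 1.89-fold, 1.62-fold and 1.45-fold. KRT80 differed by -0.82 ± 0.13, so that its 24 h level was 0.565 of its 0 h level. KRT19 differed by -0.46 ± 0.27 and did not pass the test when the arrays were treated as unpaired. By the limma test over all 14533 tested probes, 3 of the 5 measured members were called higher and 1 lower at an adjusted p under 0.05. The same test called 10.1% of the 10964 tested genes, with 4.72% higher and 5.34% lower. Counted by probe, 3 of the 6 keratin probes were called higher and 1 lower, against 9.79% of all tested probes called, 4.89% higher and 4.91% lower. The median change was -0.01 over all tested genes. Since the members were chosen with earlier results of these data known, the counts do not test the set against these shares.

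**Figure D1:**
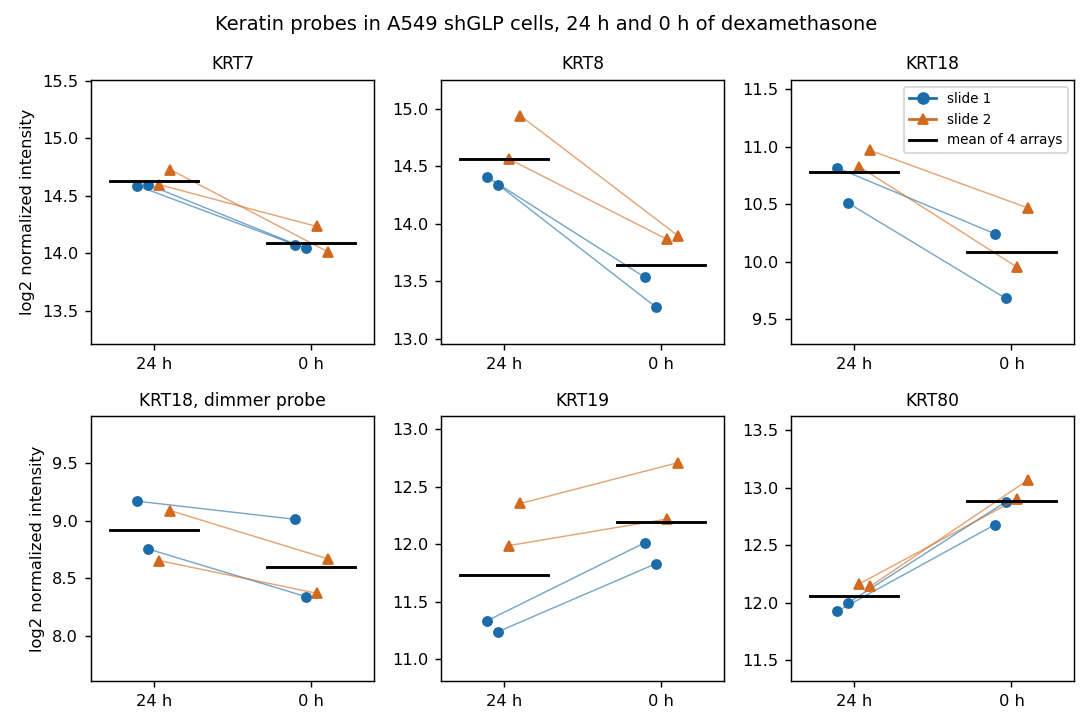
Normalized log2 intensity of the 6 keratin probes on each array, with the 24 h arrays on the left and the 0 h arrays on the right of each panel; thin lines join arrays of the same replicate number and black bars are means of 4 arrays. Each y axis spans the same number of log2 units around its own probe's mean, and levels of different probes are not comparable. KRT7, KRT8 and the brighter KRT18 probe lie higher at 24 h without overlap, KRT80 lies lower without overlap, and KRT19 is lower within each line although the times overlap.

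KRT8 (probe ILMN_1753584) had a log2 level of 14.40, 14.34, 14.56 and 14.94 on the 24 h arrays of replicates 1 to 4, against 13.53, 13.27, 13.86 and 13.89 on the 0 h arrays. All the 24 h arrays were above all the 0 h arrays, and at both times the arrays of slide 2 (replicates 3 and 4) were above those of slide 1. The adjusted p was 0.0107, and 2.68% of tested probes had a larger rise. The intensities before any normalization were 16316, 19648, 32928 and 32025 units at 24 h, against 6477, 8939, 20893 and 17845 at 0 h. The ratio of 24 h to 0 h within each replicate number was 2.52, 2.20, 1.58 and 1.79 on these unnormalized intensities, above 1 in all. The brightest reading of any keratin probe was KRT7 at 34245 units on 24 h replicate 3, where the brightest probe of the array read 68985 units.

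In RefSeq KRT8 and KRT18 are both on chromosome 12, as are KRT7, KRT80 and KRT81, and KRT19 is on chromosome 17. Of the members, 1 has an entry in the RefSeq promoter table used, and it is KRT8, the keratin with the largest change. The 250 bases before that start, on GRCh38.p14 at chr12:52926470-52926719, minus strand, are shown as the sequence in which motifs were searched. RefSeq lists 4 curated KRT8 transcripts, and the table gives 1 start, which need not be the one used in A549.
KRT8 promoter: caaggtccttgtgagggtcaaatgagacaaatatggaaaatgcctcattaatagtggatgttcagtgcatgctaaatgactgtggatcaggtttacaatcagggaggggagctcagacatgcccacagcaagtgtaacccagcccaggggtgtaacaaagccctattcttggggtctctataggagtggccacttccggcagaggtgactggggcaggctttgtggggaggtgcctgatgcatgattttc
No letters are in capitals because none of the 4 motifs searched on both strands was found. They were the glucocorticoid response element half-site AGAACA, present in 12.4% of 35116 promoter windows of this length, the AP-1 element TGANTCA (6.6%), the GC box GGGCGG (42.6%) and the TATA box TATAAA (10.7%).

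KRT18, the type I partner of KRT8, was measured by 2 probes. The brighter one (ILMN_1803408) read log2 10.82, 10.51, 10.83 and 10.97 at 24 h, and 10.24, 9.68, 9.95 and 10.47 at 0 h. These arrays did not overlap, though 24 h replicate 2 and 0 h replicate 4 were close, and the adjusted p was 0.0395. The call was lost on leaving out any 1 of 5 arrays, namely 24 h replicate 1, 3 or 4 or 0 h replicate 2 or 3 (adjusted p = 0.0882 to 0.108), and also with median scaling (adjusted p = 0.0663) and with no filter on dim probes (adjusted p = 0.0528), while it held with the replicate number as a block (limma adjusted p = 0.00766). The dimmer probe (ILMN_1730848) read 9.17, 8.75, 8.65 and 9.09 at 24 h, and 9.01, 8.34, 8.37 and 8.67 at 0 h. Its times overlapped, and its change of 0.32 ± 0.19 did not pass (adjusted p = 0.365, 95% interval -0.09 to 0.73). The changes of the KRT18 probes differed by 0.37, which the exact two-sided permutation test over arrays did not call (p = 0.0857). The platform annotation assigns the 2 probes to different RefSeq transcripts. The mean of both probes changed by 0.51 and was not called (limma adjusted p = 0.0959). RefSeq names 52 pseudogenes after KRT8, 68 after KRT18 and 5 after KRT19, and whether their transcripts add to these probes was not tested.

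KRT7 (ILMN_2163723) read log2 14.59, 14.60, 14.60 and 14.73 at 24 h, and 14.08, 14.04, 14.23 and 14.01 at 0 h. No 24 h array came near a 0 h array, and the adjusted p was 0.0152. The 24 h replicate 4 array stood above the other 24 h arrays and its KRT7 value rests on 12 beads, against 20 to 39 beads on the other arrays. Without that array the change was 0.50 and the adjusted p 0.0575, so the call rests in part on it. On unnormalized intensity the ratio of 24 h to 0 h was 1.89, 1.55, 1.32 and 1.42 in replicates 1 to 4.

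KRT80 (ILMN_1705814) was the 1 member called lower, with the smallest adjusted p of the keratin probes (0.00296). It read log2 11.93, 12.0005, 12.17 and 12.14 at 24 h, and 12.68, 12.88, 12.90 and 13.07 at 0 h. Every 24 h array was below every 0 h array, and 3.22% of tested probes had a larger fall. On leaving out any 1 array its change stayed between -0.89 and -0.76, with an adjusted p of at most 0.0134. The ratio of unnormalized intensity at 24 h to that at 0 h was 0.803, 0.611, 0.560 and 0.448 in replicates 1 to 4.

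KRT19 (ILMN_1730777), the other type I keratin, read log2 11.34, 11.24, 11.99 and 12.35 at 24 h, and 12.01, 11.83, 12.22 and 12.71 at 0 h. The times overlapped, also within slide 2, where 24 h replicate 4 was above 0 h replicate 3, and the arrays of slide 2 read higher than those of slide 1 at both times. Within each replicate number the 24 h array was lower, by -0.68, -0.59, -0.23 and -0.35 in replicates 1 to 4. The unpaired test gave an adjusted p of 0.365 with a 95% interval of -1.06 to 0.14. Blocking on the replicate number gave the same change an SE of 0.11, and KRT19 was then called lower (limma adjusted p = 0.0353), in a fit that called 8.32% of all tested probes higher and 8.42% lower. With the slide as the block the adjusted p was 0.0813. On leaving out 1 array the unpaired change ran from -0.67 (without 24 h replicate 4) to -0.30 (without 24 h replicate 2) and -0.29 (without 0 h replicate 4), and it was not called in any of the 8 such fits (limma adjusted p = 0.165 to 0.615).

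**Figure D2:**
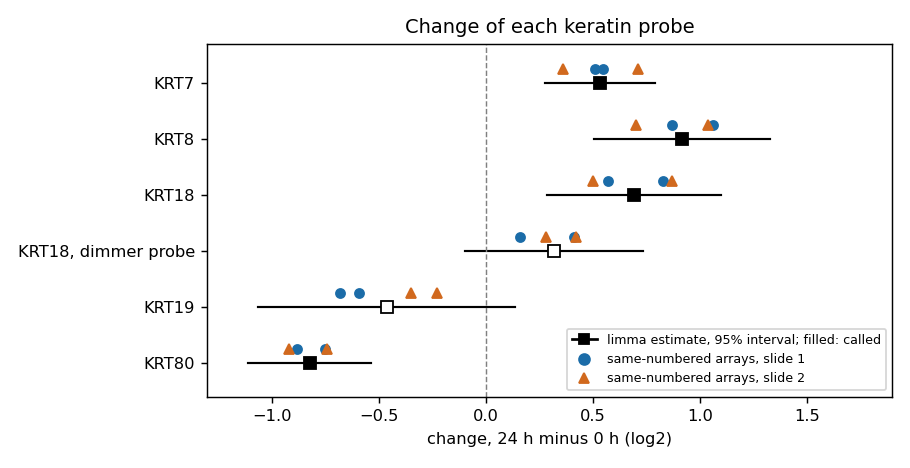
Change of each keratin probe from the limma fit (squares, with the unadjusted 95% interval; filled squares passed the adjusted p of 0.05) and the differences between arrays of the same replicate number (circles for slide 1, triangles for slide 2), in log2 units. All 4 differences are above 0 for KRT7, KRT8 and both KRT18 probes and below 0 for KRT19 and KRT80.

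The changes were close in size on the slides. Slide 1 and slide 2, with 2 arrays of each time, gave 0.97 and 0.87 for KRT8, 0.53 and 0.54 for KRT7, 0.70 and 0.69 for the brighter KRT18 probe and -0.81 and -0.83 for KRT80. For KRT19 they gave -0.63 and -0.29. The difference between slides did not pass for any keratin probe, with a difference of 0.34 ± 0.30 (SE) for KRT19 and limma adjusted p-values from 0.820 to 0.998. Of the 6 probes, 4 had times that did not overlap, against 16.9% of all tested probes.

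Whether the keratins moved by unequal amounts was asked within arrays, for the 10 pairs of the 5 measured members. The exact two-sided permutation test over arrays, 24 h against 0 h, has a smallest possible p of 0.0286. It was reached by 6 pairs (adjusted p = 0.0476 over the 10 pairs). Fewer than 6 pairs at that p would not have passed the adjustment. The 6 calls therefore stand or fall together and are not separate results. They were each of KRT7, KRT8 and KRT18 against each of KRT19 and KRT80. The change of KRT8 exceeded that of KRT80 by 1.74 ± 0.16 (SE) and that of KRT19 by 1.38 ± 0.18. The change of KRT18 exceeded that of KRT19, the other type I keratin, by 1.16 ± 0.23, and that of KRT80 by 1.52 ± 0.19. The change of KRT7 exceeded that of KRT19 by 1.00 ± 0.31 and that of KRT80 by 1.36 ± 0.11. The 4 pairs not called were KRT7 and KRT8 at -0.38 ± 0.17 (adjusted p = 0.122), KRT7 and KRT18 at -0.16 ± 0.21 (adjusted p = 0.429), KRT8 and KRT18 at 0.23 ± 0.16 (adjusted p = 0.254) and KRT19 and KRT80 at 0.36 ± 0.26 (adjusted p = 0.254), all by the exact permutation test. The 6 called pairs thus set KRT7, KRT8 and KRT18 apart from KRT19 and KRT80, and each side holds a type I and a type II keratin. An exact test within replicate pairs cannot go below p = 0.125 here. Leaving out 0 h replicate 1, 2 or 3 took KRT7 against KRT19 to an adjusted permutation p of 0.0952. The other called pairs stayed at the smallest p, but fewer pairs then shared it, so their adjusted p was 0.0571. Without 0 h replicate 4, KRT7 against KRT19 was again not called (adjusted permutation p = 0.0816).

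Genes outside the keratins whose centred profile over the 8 arrays was most like each member were found by the root mean square (RMS) difference in log2 units. For KRT8 they were STAC2, HOGA1 and CCDC107 (0.0959, 0.0965 and 0.105, against a median of 0.581 over tested genes). For KRT7 they were RAB11FIP3, RAB4B and HK1 (0.0607, 0.0616 and 0.0707, median 0.377), and for KRT80 SPDL1, RPRML and DDX10 (0.0718, 0.0802 and 0.102, median 0.488). SAP18, MYOM2 and ST6GALNAC4 were nearest to KRT18 (0.122, 0.142 and 0.143, median 0.495), and MRPL54, ASPHD1 and CD70 to KRT19 (0.145, 0.153 and 0.159, median 0.525). All these genes were picked for the smallest differences, so their values below the median follow from that choice. KRT8 and KRT18 differed from each other by 0.222, less than any other pair of members, while KRT19 and KRT80 differed by 0.365.

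Of the 40 probes of the other keratins, 23 were detected on no array, among them KRT1, KRT2, KRT13 and KRT20, and 15 were detected on at least 4 arrays and tested. Of these 15, 1 was called lower and none higher by limma, against 5.34% and 4.72% of all tested genes. The median change of the 15 was -0.17. KRT75, a keratin of hair follicles, read log2 9.54, 9.21, 9.28 and 9.48 at 24 h, and 10.51, 10.05, 9.74 and 10.23 at 0 h, without overlap. Its change of -0.75 ± 0.17 passed (adjusted p = 0.0211) but not without 24 h replicate 2 or 24 h replicate 3 (adjusted p = 0.0664 and 0.0605). With the replicate block 3 of the 15 were called lower, the others being KRT15 and KRT222. That fit called 8.42% of all tested probes lower.

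KRT15, a keratin of basal epithelial cells, was detected on none of the 24 h arrays and on all 4 of the 0 h arrays. Its log2 means were 5.21 at 24 h and 6.04 at 0 h, which with this background correction is at least 1.44-fold lower at 24 h. The size rests on that correction, since the fitted change of -0.83 was -0.35 with no background correction, -0.50 with an offset of 50 and -0.52 in the authors' deposited table. It was not called without the block (adjusted p = 0.0589) and was called with it (adjusted p = 0.0191). Leaving out 0 h replicate 4, the highest of its arrays at 6.83, gave an adjusted p of 0.0469. KRT222, which encodes a keratin-like protein, differed by -0.56 (adjusted p = 0.0629, and adjusted p = 0.0349 with the block; without 0 h replicate 4, adjusted p = 0.0103).

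The remaining 12 tested keratins did not pass in either fit. KRT10, the type I keratin of upper epidermal layers, read 12.72 ± 0.21 at 24 h and 12.83 ± 0.13 at 0 h. KRT34, a hair keratin, differed by -0.31 and KRT23 by -0.12. KRT3, KRT33A, KRT73, KRT4, KRT9, KRT83 and KRT16 ranged from -0.43 (KRT33A) to -0.01 (KRT16), and KRT72 and KRT24 were at 0.19 and 0.11. KRT72 had detection on 3 of 4 arrays (24 h) and 1 of 4 (0 h).

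**Figure D3:**
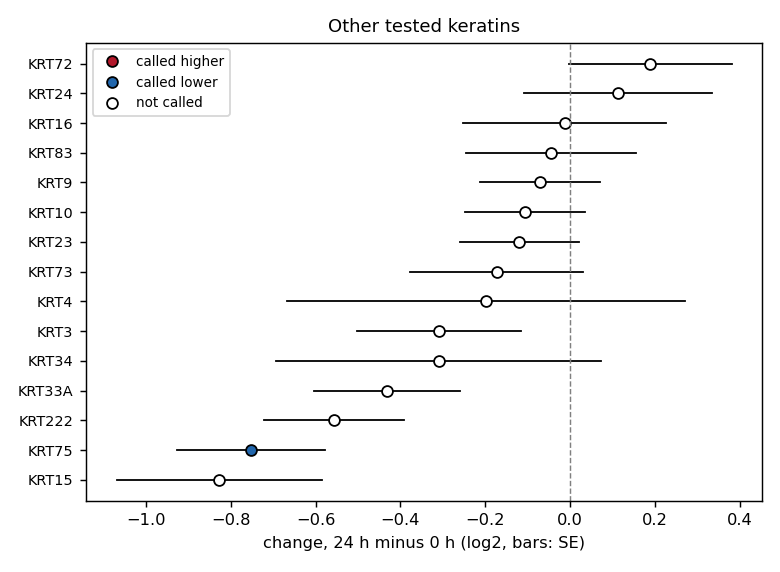
Change of the 15 other keratins that were tested, 24 h minus 0 h in log2 units, with SE bars and colour for the limma call. KRT75 is the 1 called gene, and 13 of the 15 estimates are below 0.

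Among the filament proteins outside the keratins, 1 of 10 tested genes was called higher and 2 lower, with a median change of -0.17. The shares over all tested genes were 4.72% higher and 5.34% lower. PRPH, the neuronal filament protein peripherin, read 9.49, 9.13, 9.72 and 9.63 at 24 h, and 8.92, 8.56, 8.63 and 8.35 at 0 h, a rise of 0.88 ± 0.17 (adjusted p = 0.00902). LMNB2, a B-type lamin of the nuclear envelope, changed by -0.80 ± 0.17 (adjusted p = 0.0126). SYNM, the large filament protein synemin, changed by -0.52 ± 0.14 (adjusted p = 0.0464) and lost its call on leaving out any array except 0 h replicate 4 (adjusted p = 0.0525 to 0.138), and also with median scaling (adjusted p = 0.0642). VIM, the mesenchymal filament protein vimentin, read 14.50 ± 0.19 at 24 h and 14.52 ± 0.08 at 0 h (adjusted p = 0.967). LMNB1, the other B-type lamin, differed by -0.96 and was called with the replicate block (adjusted p = 0.0419) but not without it (adjusted p = 0.0706). LMNA differed by -0.21 and INA, the neuronal filament protein internexin, by -0.003, and neither passed.

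Genes whose proteins anchor keratin filaments were read next. The median change of 8 tested desmosome genes was 0.10. Of the 8, 1 was called higher and none lower, against 4.72% and 5.34% of all tested genes. It was PKP2, plakophilin 2 of the desmosomal plaque, which read 9.87, 9.97, 9.82 and 9.86 at 24 h, and 8.46, 8.36, 8.17 and 8.51 at 0 h. The times lay well apart, with a rise of 1.50 ± 0.12 (adjusted p = 5.92e-05). JUP, the plaque protein plakoglobin, differed by -0.23 on its brightest probe, PKP4 by -0.15 and PERP by 0.13, and none of these passed. DSP, desmoplakin, which ties keratins to the plaque, was near background at 5.51 ± 0.20 at 24 h and 5.44 ± 0.33 at 0 h, and was detected on 3 of 4 and 2 of 4 arrays.

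The median change of 9 tested hemidesmosome and plakin genes was 0.07. By their brightest probes 3 were called higher and none lower, against 4.72% and 5.34% of all tested genes. ITGB4, the integrin beta 4 subunit that links keratins to the basement membrane through plectin, read 11.54, 11.15, 12.02 and 12.18 at 24 h, and 9.70, 9.41, 10.21 and 10.22 at 0 h, a rise of 1.84 ± 0.26 (adjusted p = 0.00155). Its dimmer tested probe rose by 2.09 ± 0.20, and its further probes were each detected on 1 array and not tested. PPL, periplakin, rose by 1.49 ± 0.15 (limma adjusted p = 0.000237) and LAMB3, a laminin chain of the basement membrane, by 0.81 ± 0.13 (limma adjusted p = 0.00312). A further LAMB3 probe was detected on no array. On slide 1 and slide 2 the change was 1.50 and 1.50 for PKP2, 1.79 and 1.89 for the brighter ITGB4 probe, 1.42 and 1.56 for PPL and 0.76 and 0.86 for LAMB3.

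Probes of 2 plakin genes differed in their calls. The tested PLEC probes all rose, and whether their changes differ was not tested. PLEC, plectin, differed by 0.52 ± 0.20 on its brightest probe and did not pass (adjusted p = 0.149), although it did without 0 h replicate 4 (adjusted p = 0.0240). One dimmer PLEC probe rose by 0.92 ± 0.14 (limma adjusted p = 0.00272). The other tested one, not detected at 0 h, was at least 1.18-fold higher (limma adjusted p = 0.00251). Further PLEC probes were detected on no array or on too few arrays to be tested. DST, dystonin, differed by -0.01 on its brightest probe, while 2 of its dimmer probes were called lower, at -1.73 ± 0.39 (adjusted p = 0.0178; with detection on 1 of 4 arrays at 24 h, against 4 of 4 at 0 h) and -0.77 ± 0.20 (adjusted p = 0.0385), and 1 at -0.70 was not (adjusted p = 0.0803). The DST probe at -1.73 lost its call without 24 h replicate 3 or 4 (adjusted p = 0.0502 and 0.0539), and that at -0.77 on leaving out any of 6 arrays (adjusted p = 0.0622 to 0.0999) and with median scaling (adjusted p = 0.0503), no background correction (-0.41, adjusted p = 0.0628) or no filter on dim probes (adjusted p = 0.0550), whereas the probe at -0.70 was called without 0 h replicate 4 (adjusted p = 0.0175) and with the replicate block (adjusted p = 0.0387). The platform annotation assigns the brightest DST probe and that at -0.77 to one RefSeq transcript, and those at -1.73 and -0.70 to another. With no background correction these dim probes changed by less, 0.41 and 0.31 for PLEC and -0.85 for the DST probe at -1.73. MACF1 differed by -0.24 and CD151 by -0.06, and neither passed.

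**Figure D4:**
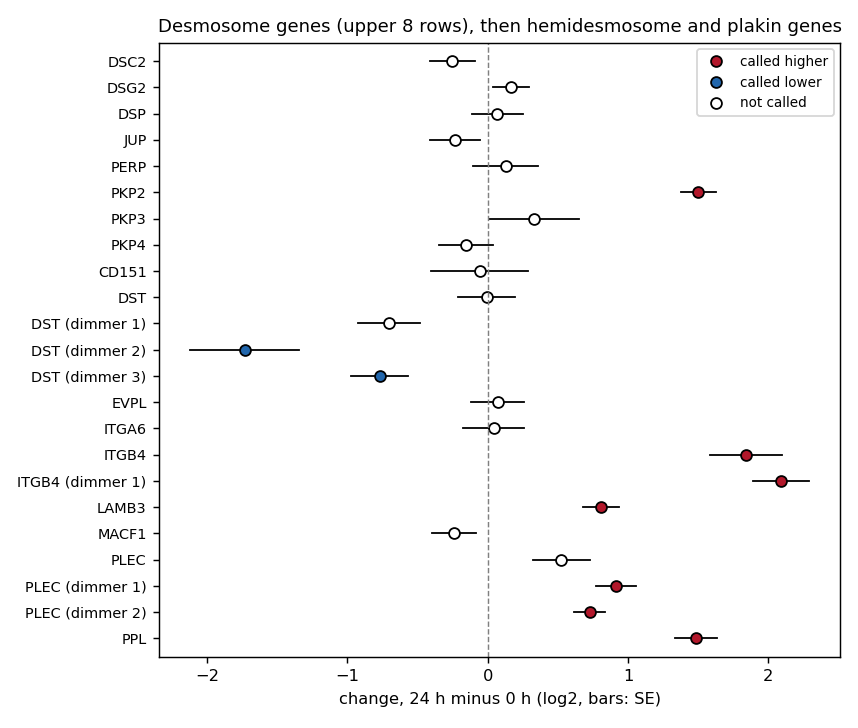
Change of desmosome genes (the upper 8 rows) and of hemidesmosome and plakin genes below them, 24 h minus 0 h in log2 units with SE bars. Dimmer tested probes of ITGB4, PLEC and DST have rows of their own. PKP2, ITGB4, PPL, LAMB3 and the dimmer tested PLEC probes were called higher, and 2 of 3 dimmer DST probes lower.

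Of 14 tested genes that bind keratins or act in filament turnover, 1 was called higher and none lower, with a median change of 0.05. The shares over all tested genes were 4.72% and 5.34%. HSPB1, a small heat shock protein, rose by 0.58 ± 0.14 (adjusted p = 0.0230) and lost its call without 24 h replicate 1, 3 or 4 or 0 h replicate 3 (adjusted p = 0.0537 to 0.0765). YWHAZ, a 14-3-3 protein, differed by -0.03 on its brightest probe, and PNN and DNAJB6 by -0.14 and 0.14, and none of these passed. A dimmer YWHAZ probe was called higher at 0.53 ± 0.14 (adjusted p = 0.0378) but not on leaving out any of the 8 arrays (adjusted p = 0.0502 to 0.0970). With the replicate block PRKCE, a protein kinase C, was also called, at -0.74 (adjusted p = 0.0237).

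Of 9 tested transcription factors of epithelial and keratin genes, 1 was called lower and none higher, with a median change of -0.29. The shares over all tested genes were 5.34% and 4.72%. TFAP2C, an AP-2 factor, read 10.32, 10.54, 10.37 and 10.46 at 24 h, and 10.93, 11.05, 10.87 and 11.15 at 0 h, a change of -0.58 ± 0.12 (adjusted p = 0.0130). With the replicate block KLF5 was called higher at 0.81 (adjusted p = 0.00963) and FOXA2 lower at -0.37 (adjusted p = 0.0498), which limma without the block did not call (adjusted p = 0.0665 and 0.226). FOXA1 differed by -0.34 and ELF3 by -0.29, and neither passed in either fit. Of 4 tested genes of the cornified envelope and squamous differentiation, limma called none, against 10.1% of all tested genes. KLK7 of that list differed by -0.37 (limma adjusted p = 0.152). CNFN and SPRR1B of that list differed by -0.02 and 0.21.

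Markers of cell types were read beside the keratins. Of 6 tested epithelial markers, 2 were called higher, against 4.72% of all tested genes. They were MUC1 at 1.84 ± 0.26 and CDH1 at 1.09 ± 0.24. EPCAM, CRB3 and CLDN4 were not called, and CLDN4 was near background at 5.79 (24 h) and 5.76 (0 h). CLDN7 was detected on 3 of 4 arrays (24 h) and 0 of 4 (0 h) and not tested, and ESRP2 and ST14 were detected on none. CLDN1, the tight junction protein claudin 1, differed by -0.37 and was not called (adjusted p = 0.221), at 13.13 ± 0.18 at 24 h and 13.50 ± 0.28 at 0 h. The summed level of the 12 epithelial probes, most of which came from the CLDN1 probe, ran from 11450 to 14237 units at 24 h and from 11908 to 15695 units at 0 h. The summed level of 9 fibroblast probes ran from 712.0 to 970.2 units at 24 h and from 668.7 to 1245 units at 0 h. Of 4 tested fibroblast markers, 1 was called higher and 1 lower, against 4.72% and 5.34% of all tested genes. COL1A1 was lower at -1.22 ± 0.32 (limma adjusted p = 0.0385), although its times overlapped. The tested DCN probe was at least 2.98-fold higher, while the other was detected on no array. PDGFRA and THY1 were detected on all 8 arrays and not called, and COL1A2, COL3A1 and PDGFRB were detected on none. The 6 endothelial probes summed to 619.8 to 874.1 units at 24 h and 665.9 to 1125 units at 0 h. Of them ESAM (log2 8.79 at 24 h and 9.17 at 0 h) and PECAM1 (a difference of -0.06) were detected on all 8 arrays. KDR was detected on 4 of 4 and 3 of 4. None of these was called by limma, and CDH5, VWF and TEK were detected on no array. The 7 leukocyte probes summed to 440.8 to 722.0 units at 24 h and 681.9 to 835.6 units at 0 h. CD14 (brighter probe, log2 8.18 at 24 h and 8.84 at 0 h) and CD68 (6.36 and 6.28 at the same times) were detected on all 8 arrays, neither was called (CD14 at an unadjusted p of 0.0118), and PTPRC and CD3E were detected on no array. Their part in the keratin changes was not tested, and in bulk RNA fewer cells of a type and less RNA per cell cannot be told apart.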

How the data were processed

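The authors deposited, per the file headers, a table of unprocessed linear bead intensity per probe and array, with a detection p-value for each (the p-value is 0 for each keratin probe on every array). They also deposited a normalized table of log2 values for 22011 of the 25204 probes; the submitters' processing notes name limma without its settings. The columns headed standard error and num beads hold other values per probe, and of these the deposited bead numbers were used for description only. Bead number and the number of arrays limit the precision.

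Intensities were background-corrected with nec of limma 3.58.1 (R 4.3.3) from the detection p-values, offset 16, the 22011 probes were quantile normalized, and log2 was taken. Probes entered the test if their detection p was under 0.05 on at least 4 of 8 arrays (14533 probes). All 6 keratin probes passed. lmFit and eBayes compared 24 h with 0 h, two-sided, with Benjamini-Hochberg adjustment over all tested probes and a threshold of 0.05. A gene was counted by its brightest tested probe. A fold is given as "at least" where a probe was detected on no array of 1 time, from the mean of the other time against, per array, its own signal or the lowest detected one, whichever was higher. Levels are mean ± SD, changes log2 differences ± SE. The fit was tested on simulated data.

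Symbols came from the platform annotation (19759 probes with 1 symbol, 0 with several, 2252 with none), updated through Entrez identifiers in RefSeq (assembly GRCh38.p14; 19741 matched). "Other keratins" are all further symbols of KRT and a number, without pseudogenes or antisense genes.

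Members and lists were chosen with earlier results of these data known. Named are all member probes, every tested keratin, up to 6 called members of each list and its 3 brightest others, and 3 genes most like each member; DSP, LMNB1, PRKCE, KLF5, KLK7 and the cell type markers named singly were chosen after their values were seen. Arrays of the same number deviated together from their group means across probes (r = 0.463, 0.454, 0.367 and 0.454 for replicates 1 to 4). The labels give no reason for this. The main fit and the permutation test over arrays were unpaired, and the numbers were taken as pairs only in alternatives. Alternatives changed the background correction, scaling, filter, block, slide, variance model and arrays used.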

Additional observations from a re-analysis of the deposited data

Results flagged for a closer look

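Among 116 sets of 4 arrays of 1 time, for the keratin probes and the other named probes, 10 had an array far from its fellows by Dixon's criterion, which chance gives in about 1 of 20 sets. Among the members it was KRT7 on 24 h replicate 4, at log2 14.73 against 14.59 to 14.60 on the other 24 h arrays, which is the array with 12 beads.

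KRT4 read 8.11 on 24 h replicate 4, KRT3 read 7.18 on 0 h replicate 1 and KRT23 read 7.38 on 24 h replicate 2. LAMB3 read 10.14 and CNFN 10.61 on 24 h replicate 2, and FOXA1 read 11.44 on 24 h replicate 3. DNAJB6 read 11.85 on 0 h replicate 4. A dimmer DST probe read 6.87 on 24 h replicate 3 and a dimmer PLEC probe 4.94 on 0 h replicate 1.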

How the results depend on the processing

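The 6 keratin probes kept their direction under all 21 alternatives to the fit. Changing the filter, adding a block or using the intensity trend leaves the estimate itself unchanged. Under those alternatives the direction could not change, and only the call could. KRT8 lost its call only within slide 2 (0.87) and KRT80 only within slide 1 (-0.81) and slide 2 (-0.83). KRT7 was not called within slide 1 (0.53) or slide 2 (0.54), and ran from 0.50 to 0.58 with 1 array left out. KRT18 was not called with median scaling (0.66), without the filter on dim probes (0.69, more probes tested), or within slide 1 (0.70) or slide 2 (0.69), and ran from 0.56 to 0.82 with 1 array left out. KRT19 (-0.46) was called only with the replicate block, differed by -0.26 with array weights and ran from -0.67 to -0.29 with 1 array left out. Members and probes called higher numbered 1 to 3 each with 1 array left out, 1 each within slide 1 and 0 each within slide 2; those called lower numbered 2 each with the replicate block and 0 each within either slide. Each slide alone has 4 arrays.

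Within replicate pairs the 6 called differences between members (KRT7 minus KRT19 1.00 and minus KRT80 1.36, KRT8 minus KRT19 1.38 and minus KRT80 1.74, KRT18 minus KRT19 1.16 and minus KRT80 1.52) had an adjusted exact p of 0.156, since 4 pairs allow no p under 0.125. With 1 array left out they ran from 0.80 to 1.17, 1.27 to 1.42, 1.29 to 1.47, 1.62 to 1.81, 1.01 to 1.30 and 1.38 to 1.64, and KRT7 minus KRT8 from -0.49 to -0.28, called without 0 h replicate 4.

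Other keratins called lower numbered 2 with no background correction and with array weights, 3 with the replicate block and with the slide as a block, 0 within either slide, and 0 to 3 with 1 array left out. Other filament genes called lower gained LMNB1 with the replicate block. They numbered 1 with median scaling, 0 within either slide and 1 to 2 with 1 array left out, and none was higher within slide 1 (0). Keratin-binding genes called lower numbered 1 with the replicate block, the slide block and array weights, and 0 to 1 with 1 array left out; those higher numbered 0 within either slide and 0 to 1 with 1 array left out. Transcription factors called higher numbered 1 with the replicate block, the slide block and the intensity trend and 0 to 1 with 1 array left out; those lower numbered 2 with the replicate block and 0 within either slide. The replicate block called 17% of genes, against 10.1% without it, and changed no call among the named genes beyond KRT19, KRT15, KRT222, LMNB1, PRKCE, KLF5, FOXA2 and the DST probe at -0.70.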
